A study of Homo sapiens with 20 samples.

Results

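The ATF4 and amino acid response module described here is a list of 41 genes: the transcription factor ATF4, genes known as its targets, and enzymes, transporters and tRNA synthetases of amino acid supply. The genes were taken by symbol from a list chosen with earlier results of these data known. Of the 27864 annotated genes, 41 carried these symbols. They were measured by stranded mRNA sequencing in SUM159PT, an established triple-negative breast cancer line of mesenchymal type. Wild-type cells (wt) were set against a pair of pools made by genome editing of NNMT, an enzyme of the cytosol that moves a methyl group from S-adenosylmethionine to nicotinamide. The KOs pool was made with 1 sgRNA at the transcription start site of NNMT, and the KOd pool with 2 sgRNAs that delete exon 1. Each pool is oligoclonal, a mix of several edited clones, so a difference from wt can also be one between clones and the parental line, and these cannot be told apart here.

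Each of the 3 genotypes was grown in 2 ways, with n = 3 libraries per group. Adherent cells (2D) were kept in a serum medium (Ham's F12, 5% serum, insulin at 5 µg/ml, hydrocortisone at 1 µg/ml) and were taken at 80% confluency. Secondary tumorspheres (3D) formed in suspension through 2 rounds of 6 days in DMEM/F12 with B27, 20 ng/mL EGF and 20 ng/mL basic FGF. A further 2 libraries came from adherent wt cells that were switched at 50% confluency to the tumorsphere medium until they reached 80% (wt 2D in tumorsphere medium). Attachment, medium and the RNA kit all differ between 2D and 3D, so in the pools their parts in a 2D to 3D change cannot be told apart. For wt, the 2 libraries in tumorsphere medium separate the medium in part. That the replicates were separate cultures is not stated, and p-values therefore measure the spread between these libraries.

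ATF4 is the main transcription factor of the integrated stress response. Kinases that sense amino acid shortage, unfolded protein, viral RNA or heme deficiency phosphorylate the translation factor eIF2, which lowers translation in general but raises that of ATF4 mRNA. ATF4 then pairs with other bZIP proteins, above all those of the C/EBP family, at composite elements in its target genes, and raises amino acid uptake, serine, asparagine and cysteine synthesis, tRNA charging, and feedback regulators such as TRIB3 and PPP1R15A. Because ATF4 is set largely by translation, its mRNA level alone does not measure its activity.

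NNMT mRNA was measured first, as a check of the labels. Its level was 117 ± 13.3 CPM (the read count relative to the TMM-scaled library total; SD, n = 3) in wt 2D, and 4.55 ± 0.139 and 5.15 ± 0.497 CPM in KOd 2D and KOd 3D. The libraries labelled KOs held 106 ± 27.6 CPM in 2D and 84.8 ± 1.75 CPM in 3D, and NNMT mRNA was not called lower there (adjusted p = 0.518 and 0.301, edgeR's quasi-likelihood test). A guide at the start site need not lower the mRNA, so this does not show whether NNMT protein was lost, and the pool is called labelled KOs throughout. The libraries labelled KOs also held more reads (37316513 to 43744817 against 26396964 to 32016875) and less ribosomal RNA (0.696% to 2.379% against 2.562% to 8.315%) than every other library, which cannot be told apart from the pool. Markers fitted the line in part. VIM and CD44 stood at 5066 and 599.8 CPM in wt 2D, and CDH1 and PGR at 0. ERBB2, listed beforehand as low or absent in such cells, stood at 90.7 CPM. Of the 6 markers listed as low or absent, 2 had enough reads to be tested. Levels of the listed markers ZEB1, AXL, CAV1, ESR1, EPCAM and GATA3 are not given here. Of the leukocyte markers CD3E was at no more than 0.0204 CPM in each of the 7 groups, and of the endothelial markers CDH5 reached 0.0564 CPM while PECAM1 stood at 2.66 CPM in wt 2D, 59.4 CPM in wt 3D and 92.98 CPM in KOd 3D. CD68, a lysosomal protein that marks macrophages but is made by other cells too, differed between groups: it stood at 27.2 CPM in wt 2D, 43.2 in KOd 2D and 88.9 in labelled KOs 2D, at 16.6, 30.0 and 187 CPM in the matching 3D groups, and at 104 CPM in wt 2D in tumorsphere medium. It was higher in labelled KOs than in wt in 2D (log2 fold change 1.71) and 3D (3.50). PTPRC and ITGAM, which are closer to defining leukocytes, reached group means of no more than 2.23 and 3.18 CPM, both in KOd 3D. The part of these markers in the results below was not tested.

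Where ATF4 binds, its composite elements often hold the letters TGATGNAA, and some members carry them next to the start site. RefSeq windows (GRCh38.p14, 250 bases before to 50 after the start) were found for 34 of the 41 members, and TGATGNAA on either strand was present in 12 of them (35.3%), compared with 4.46% of 27305 genes with a window. A gene with several windows counted if any of them held a match, and some members, such as ASNS and ATF3, lacked it in another window. Counted by window, 25.5% of the members' 55 windows held a match, and 3.62% of all 35116. The matches are shown for 7 members of different roles, each as 30 bases on the gene's strand with the matched letters in capitals. TTGCATCA is the reverse complement of TGATGCAA. A match is a description of the letters, not a bound site. The list holds genes known as ATF4 targets, so a share above that of all genes is in part built in. It is no separate support for the list.
ASNS, chr7:97872458-97872487, minus strand, 68 bases before the start: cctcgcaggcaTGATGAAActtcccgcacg
CHAC1, chr15:40953251-40953280, plus strand, 209 bases before: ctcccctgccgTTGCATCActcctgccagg
ATF3, chr1:212565205-212565234, plus strand, 191 bases before: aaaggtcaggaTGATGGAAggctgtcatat
CEBPG, chr19:33374060-33374089, plus strand, 42 bases before: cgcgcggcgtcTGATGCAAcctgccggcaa
SLC1A4, chr2:64989381-64989410, plus strand, 7 bases before: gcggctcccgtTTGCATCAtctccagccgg
MTHFD1L, chr6:150866346-150866375, plus strand, 129 bases before: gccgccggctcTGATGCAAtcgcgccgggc
AARS1, chr16:70289675-70289704, minus strand, 187 bases before: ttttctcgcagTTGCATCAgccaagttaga

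The other 5 members with a match were GARS1, MARS1, NARS1, SLC3A2 and SLC1A5. No RefSeq window was given for SLC7A11, PYCR1, SHMT2, SLC7A3, ALDH1L2, NUPR1 and PSPH. All 12 members with a match were among those that rose in adherent KOd cells, described next, but so were most members without one.

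In adherent cells the KOd pool stood far above wild type across nearly the whole module. Of the 40 members tested, 37 rose and 1 fell at an adjusted p under 0.05 (edgeR's quasi-likelihood test, adjusted over all 16323 genes tested), where 22.1% of all genes rose and 22.5% fell. The members' median log2 fold change was 1.64, and that of all tested genes 0.005. For 30 of the 40 members the rise was at least 2-fold, as it was for 7.45% of all genes, and for 38 all KOd libraries lay above all wt libraries, as they did for 31.4% of all genes. Reads of the members made up 1.52% ± 0.109 of all reads in KOd 2D (SD, n = 3), and between 0.520% and 0.665% in the means of the other 6 groups. SLC7A3, a transporter of cationic amino acids, had 0 reads in all 20 libraries, which allows at most 0.0686 to 0.114 CPM by counting error alone (3 reads of the library total).

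**Figure D1:**
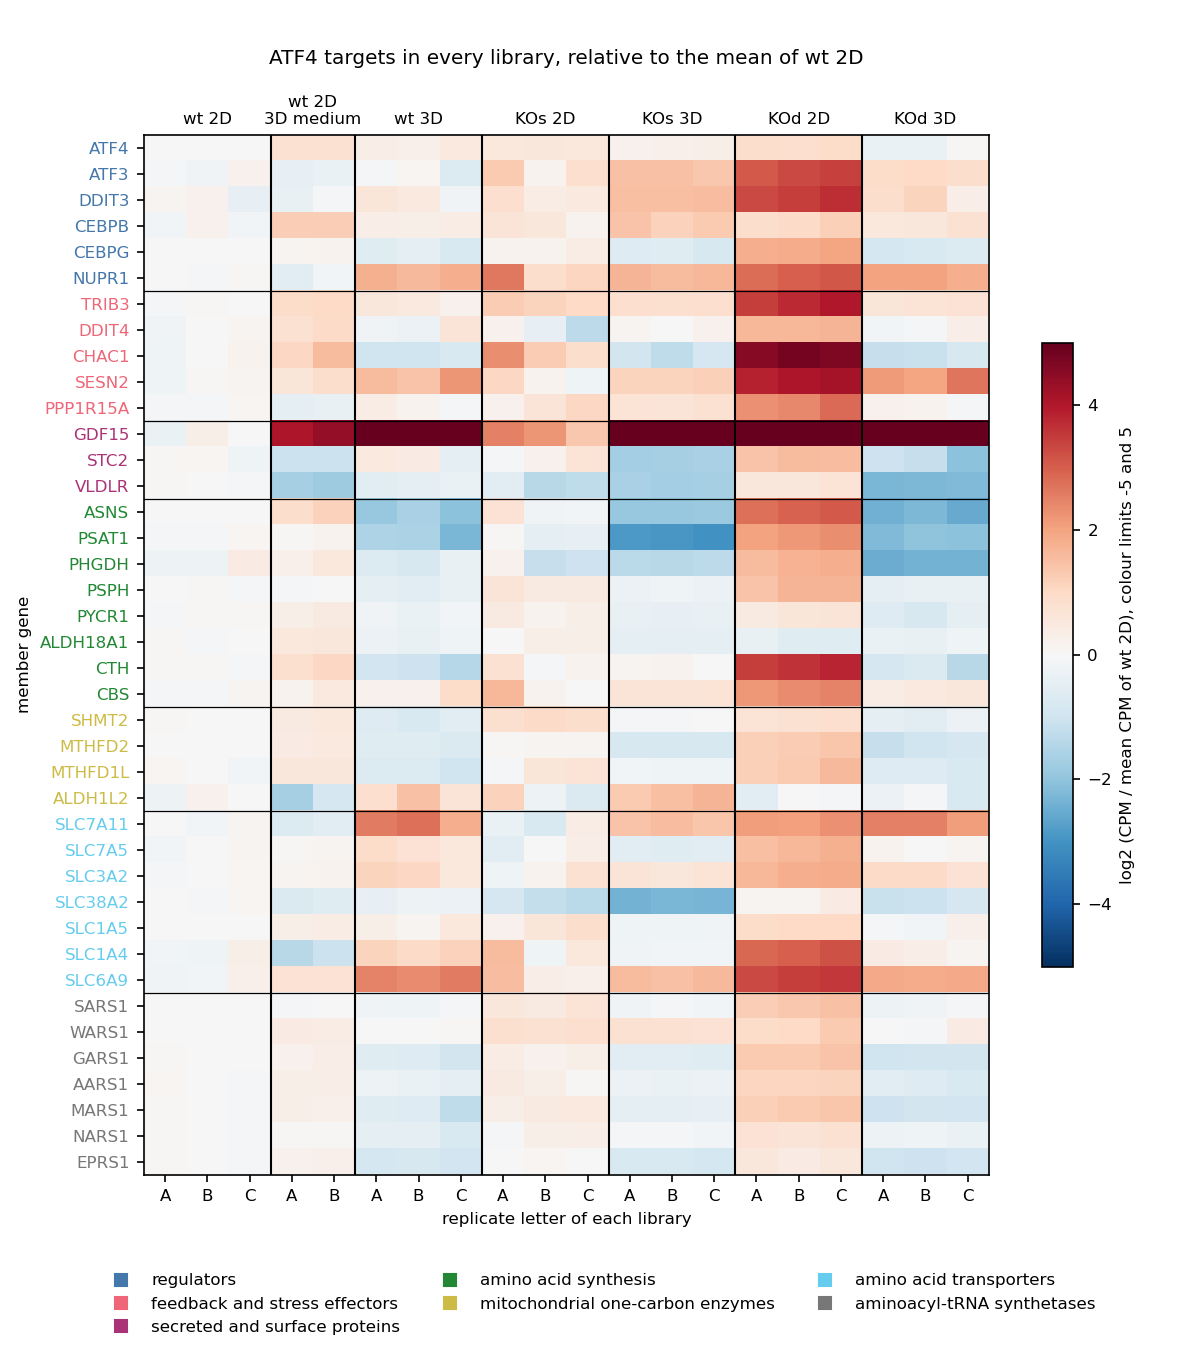
Heat map of the 40 members with reads (vertical axis) in the 20 libraries (horizontal axis, replicate letter within group), coloured by log2 of CPM over the mean of wt 2D, with colour limits at -5 and 5. The 3 KOd 2D libraries are red for nearly all members, and in 33 of the 40 they lie above each of the other 17 libraries, as they do in 8.21% of all tested genes.

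Among the regulators all 6 rose, with a median log2 fold change of 2.43. ATF4 itself (Entrez 468, GRCh38.p14 chr22:39520559-39522686) stood at 229.6, 226 and 219.8 CPM in replicates A, B and C of wt 2D and at 417, 401 and 426 CPM in KOd 2D. The KOd libraries were all higher than the wt libraries, and the rise was 1.84-fold (log2 fold change 0.88 ± 0.09 SE, adjusted p = 7.7e-07). DDIT3, which encodes the bZIP protein CHOP that heterodimerises with C/EBP proteins under stress, moved from 14.8, 15.6 and 10.1 CPM to 133, 149 and 173 CPM. This was an 11.3-fold rise with no overlap (log2 fold change 3.49 ± 0.23, adjusted p = 2.5e-09). ATF3, a stress-induced repressor of the ATF family, moved from 3.95, 3.61 and 4.71 CPM to 34.3, 40.2 and 44.1 CPM, so that each KOd library lay above every wt library. NUPR1, a small stress-induced chromatin protein, moved from 17.4, 16.7 and 18.2 CPM to 119.5, 138 and 149 CPM, again without overlap. CEBPG, a dimer partner of ATF4, rose by 1.90 ± 0.09 on the log2 scale and CEBPB, the C/EBP member linked to inflammation and differentiation, by 1.02. The exons of DDIT3 share 27.2% of their bases with MARS1 on the opposite strand, and whether the counting used strand is not given in the sources used here. Other members overlap annotated genes too, among them DDIT4 (41.2%, DDIT4-AS1) and MTHFD2 (27.2%, SLC4A5) on the opposite strand. ASNS shares 44.6% with AC079781.5 on the same strand.

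The feedback and stress effectors held the largest median, 3.75, and all 5 rose. TRIB3 (chr20:380760-397559), a pseudokinase that binds ATF4 and AKT and restrains the response, stood at 50.2, 55.4 and 53.2 CPM in wt 2D and at 586, 704 and 842 CPM in KOd 2D. The 3 KOd libraries differed among themselves but were all more than 10 times the wt libraries, and the 13.4-fold rise (3.75 ± 0.12, adjusted p = 1.3e-12) gave TRIB3 rank 1 of all 16323 genes by adjusted p. SESN2, a leucine-binding inhibitor of mTORC1, moved from 6.44, 7.64 and 8.20 CPM to 107, 121 and 132 CPM (4.01 ± 0.28, adjusted p = 6.2e-09), with no overlap. CHAC1, an enzyme that degrades glutathione, lay between 2.05 and 2.71 CPM in wt 2D and between 55.5 and 65.6 CPM in KOd 2D, a 25.3-fold rise. PPP1R15A, the stress-induced subunit (GADD34) that directs a phosphatase to eIF2, rose 5.75-fold, and DDIT4, an mTORC1 inhibitor also called REDD1, rose 3.20-fold. Per length, DDIT4 was the most abundant member in KOd 2D, at a level of 515.1 ± 10.0 RPKM (CPM per kilobase of gene length, SD, n = 3), ahead of SLC38A2 at 325.8 ± 34.9 RPKM, GARS1 at 271 RPKM, SLC7A5 at 254 RPKM and TRIB3 at 246 ± 44.3 RPKM. In wt 2D the highest level per length was that of SLC38A2 (278 ± 14.0 RPKM), with ATF4 at 111 ± 2.43 and TRIB3 at 18.3 ± 0.902 RPKM.

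**Figure D2:**
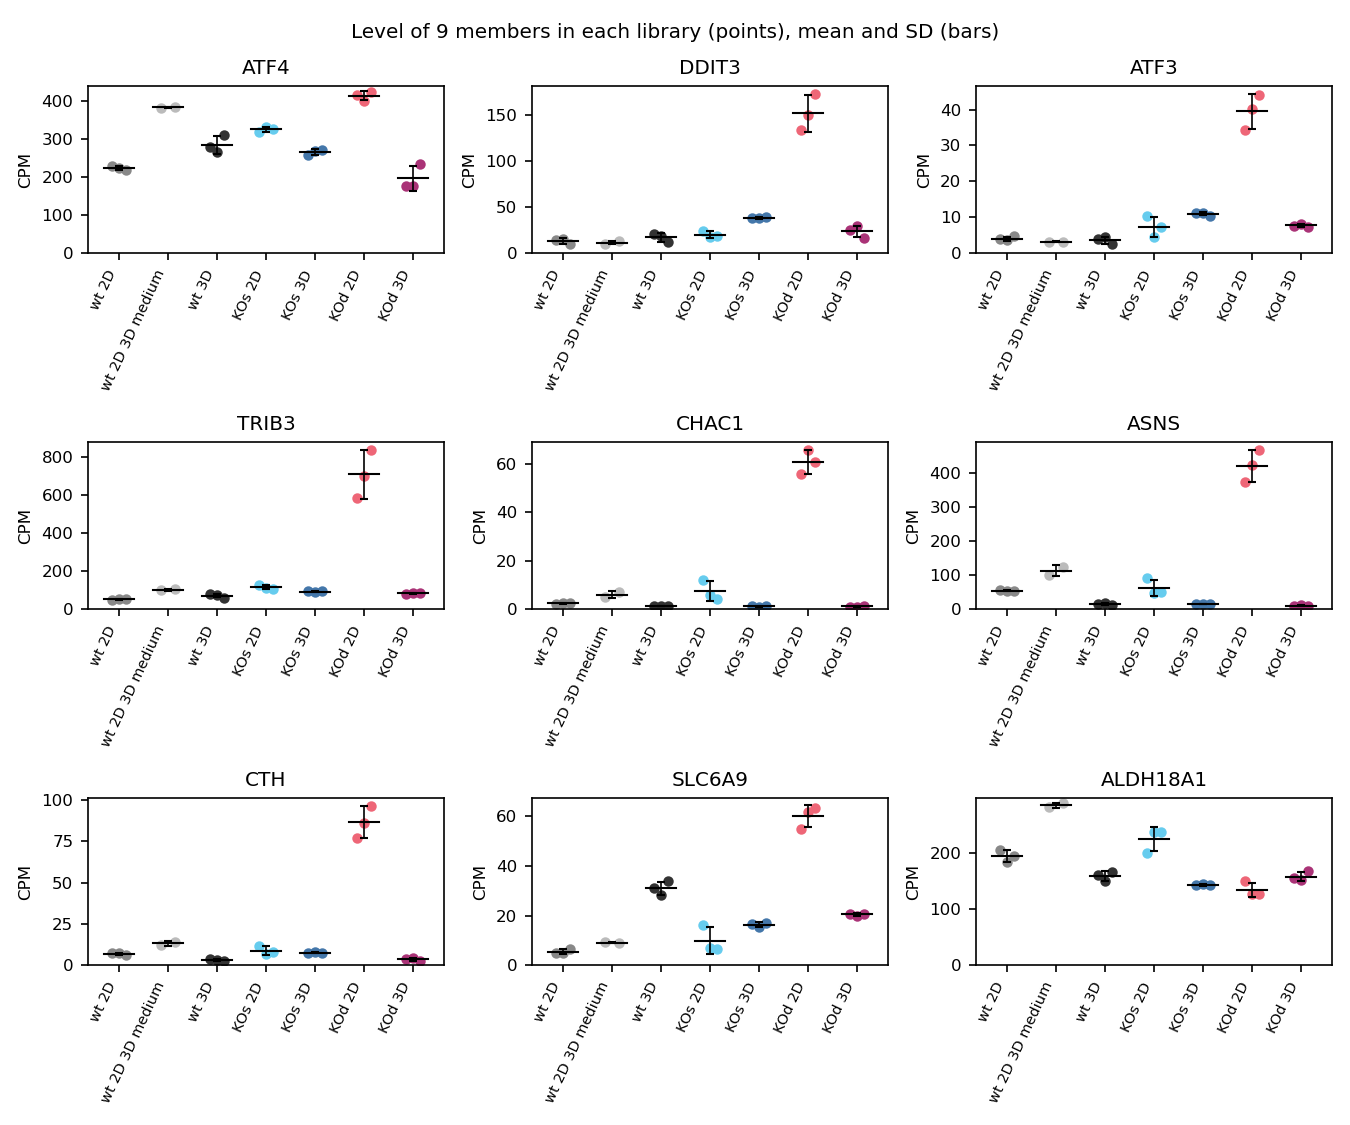
CPM of 9 members (one panel each, vertical axis) in every library of the 7 groups (horizontal axis); points are libraries, bars the mean and SD. The group marked 3D medium is adherent wt in tumorsphere medium. The other 8 members are highest in KOd 2D, and ALDH18A1 is lowest there.

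The secreted and surface proteins all rose, from the largest change in the module to one of the smallest. GDF15, a secreted stress cytokine of the TGF-β superfamily, was nearly silent in wt 2D at 1.02, 1.60 and 1.29 CPM and reached 56.6, 68.6 and 98.6 CPM in KOd 2D. No wt library came near the KOd libraries, and the fold change was 56.9 (log2 5.83 ± 0.30, adjusted p = 2.5e-10). STC2, a secreted glycoprotein, rose by 1.52 and VLDLR, a lipoprotein receptor, by 0.61 on the log2 scale.

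Of the 8 enzymes of amino acid synthesis, 7 rose and 1 fell. Asparagine synthetase (ASNS, chr7:97851677-97928441), a standard readout of amino acid shortage, stood at 55.9, 55.1 and 54.5 CPM in wt 2D and at 374, 425 and 467 CPM in KOd 2D. The wt libraries were nearly equal and the KOd libraries were all well above them (7.65-fold, 2.94 ± 0.19, adjusted p = 2.3e-09). Cystathionine γ-lyase (CTH), the last step from methionine to cysteine, moved from 7.17, 7.27 and 6.43 CPM to 77.1, 86.3 and 96.5 CPM, with no overlap (12.4-fold, 3.64 ± 0.20, adjusted p = 3.7e-10). CBS, the step before it, rose 5.03-fold. The serine synthesis enzymes PSAT1, PHGDH and PSPH rose by 2.18, 1.72 and 1.62 on the log2 scale, and PYCR1, which makes proline, by 0.56. The exception was ALDH18A1, which feeds glutamate into proline synthesis: it fell from 204, 183 and 194 CPM to 149, 127 and 126 CPM (-0.53 ± 0.08, adjusted p = 5.9e-05), so the only member that fell did so in all KOd libraries.

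Transport and charging of amino acids moved the same way. Of the 7 transporters with reads, 6 rose. SLC6A9, a glycine transporter, moved from 4.87, 5.03 and 6.67 CPM to 54.9, 61.4 and 63.3 CPM, and SLC1A4, which carries serine, alanine and cysteine, from 5.05, 4.73 and 6.71 CPM to 39.7, 44.1 and 50.4 CPM. Both were without overlap (log2 fold changes 3.44 and 3.02). The cystine importer SLC7A11 rose by 2.15 and its partner chain SLC3A2 by 1.78, the leucine transporter SLC7A5 by 1.65 and the glutamine transporter SLC1A5 by 0.97. SLC38A2, a glutamine and alanine transporter that was already the most abundant member per length in wt 2D, did not pass (0.23 ± 0.11, adjusted p = 0.11), although it passed when library totals alone were used (0.34) and without labelled KOs 2D replicate A (0.23). The 7 tRNA synthetases all rose, between 0.52 (EPRS1) and 1.36 (SARS1), with a median of 1.09. Of the 4 mitochondrial one-carbon enzymes, SHMT2, MTHFD2 and MTHFD1L rose by 0.76 to 1.38. ALDH1L2, which returns formyl-folate to the free cofactor, did not pass (-0.20 ± 0.42) and was the lowest member with reads, at 0.0811 RPKM in KOd 2D.

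The members were then set beside other lists, drawn up by function, again with earlier results of these data known. Of 20 further genes linked to ATF4 in textbook accounts, 18 rose and 0 fell (median 1.04); with the smallest adjusted p were GPT2, an alanine transaminase (2.10 ± 0.08), and the cysteinyl and tyrosyl tRNA synthetases CARS1 (1.67) and YARS1 (1.09). GOT1 and ATF5 did not pass. The 8 cytosolic tRNA synthetases outside both lists went the other way, with 0 that rose and 4 that fell (median -0.18; RARS1 -0.50, KARS1 -0.45). Of the 17 mitochondrial tRNA synthetases, 3 rose and 6 fell. The ATF6 and XBP1 targets and chaperones of the endoplasmic reticulum were mixed, with 9 of 17 that rose and 4 that fell, led by XBP1 (1.67), HERPUD1 (1.74) and DNAJB9 (1.99). Of 11 eIF2 kinases and regulators, 3 rose and 3 fell, among them DELE1 (0.68), which relays mitochondrial stress to HRI, and the amino acid sensor kinase EIF2AK4 (-0.45). Of 8 mitochondrial chaperones and proteases 3 rose and 3 fell, led by HSPE1 (-1.50). Among p53 targets 5 of 9 rose and 2 fell (median 0.73), and 7 of 8 proliferation genes fell (median -0.78, BUB1 -1.06, PCNA -0.90). The part of these other changes in the members' rise was not tested.

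**Figure D3:**
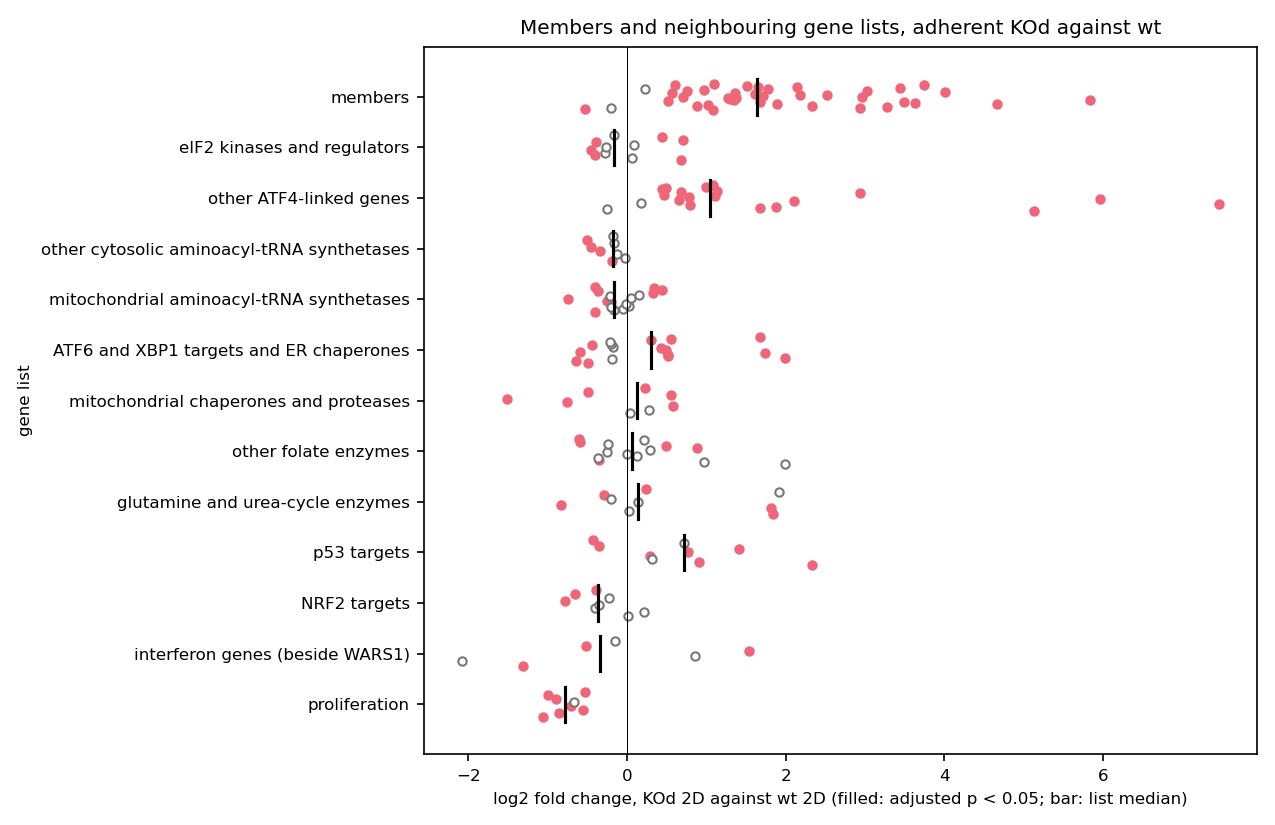
Log2 fold change of KOd 2D against wt 2D (horizontal axis) for each gene of the module and of the other lists (vertical axis); filled points passed an adjusted p of 0.05 and the bar is the list's median. The members (median 1.64) and the further ATF4-linked genes (1.04) lie to the right, and the other cytosolic tRNA synthetases (-0.18) just left of 0.

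The pools were also compared directly in 2D, a comparison added after the data were seen. In KOd 2D, 37 of 40 members were higher than in labelled KOs 2D and 1 was lower, where 28.8% of all genes were higher and 30.7% lower. The median difference was 1.42 on the log2 scale. GDF15 stood at 7.59, 6.01 and 3.32 CPM in labelled KOs 2D and SESN2 at 15.2, 8.46 and 6.36 CPM, all far below the KOd libraries given above (differences of 3.72 ± 0.25 and 3.58 ± 0.27). CTH at 11.8, 6.76 and 7.86 CPM and DDIT3 at 24.2, 17.6 and 18.9 CPM were likewise clear of KOd 2D (3.29 ± 0.19 and 2.91 ± 0.22, adjusted p of DDIT3 5.6e-09). For ATF4 mRNA the difference was small, 0.34 ± 0.09 (adjusted p = 0.0039), and ALDH18A1 was the member that was lower (-0.74). SHMT2 (-0.11) and ALDH1L2 (-0.52) did not pass. Because both pools are compared with the same wt libraries elsewhere, this contrast is the one that sets the pools against each other directly. The libraries labelled KOs also differ from the KOd libraries in read depth and ribosomal RNA share, which cannot be told apart from the pool. Leaving out 1 library gave 34 to 37 members higher in KOd 2D.

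Against wild type, adherent cells of the pool labelled KOs showed a smaller rise of the module. Of 40 members, 24 rose and 2 fell, where 27.7% of all genes rose and 25.5% fell, and the median was 0.38 (0.06 over all genes). At least 2-fold rises were found for 4 members and for 8.03% of all genes. All 6 regulators rose, and the members that fell were SLC38A2 and VLDLR.

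ATF4 stood at 320.3, 333 and 326 CPM in the libraries labelled KOs, all above wt 2D and below KOd 2D (0.54 ± 0.09, adjusted p = 0.00012). TRIB3 was at 128, 114 and 107 CPM, also without overlap with wt (1.14 ± 0.11, adjusted p = 3.2e-07). GDF15 rose by 2.12 ± 0.31 (adjusted p = 2e-05), from near silence to a level still below 8 CPM in each library. NUPR1 was at 108, 32.3 and 37.0 CPM, so replicate A was about 3 times the other libraries of its group, though all lay above wt (1.76 ± 0.30, adjusted p = 0.00011). SLC38A2 was lower in all libraries of the pool, at 751, 595 and 531 CPM beside 1328, 1310.3 and 1437 CPM in wt 2D (-1.12 ± 0.12, adjusted p = 4e-07). ASNS, at 90.9, 48.2 and 50.4 CPM, overlapped wt and did not pass (0.20 ± 0.18, adjusted p = 0.37). DDIT3 passed narrowly (0.59 ± 0.21, adjusted p = 0.029), and SESN2 (0.43), CTH (0.34) and PSAT1 (-0.25) did not pass.

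Replicate A of labelled KOs 2D stood apart in this comparison: 12 of the 40 members were more than 1.5 times both other replicates there, as were 17.43% of all genes. Without it DDIT3 (0.43, adjusted p = 0.11), CBS (0.09), SLC1A4 (0.21) and AARS1 (0.18) did not pass (nor DDIT3 and AARS1 without wt 2D replicate C, at 0.42 and 0.24), while PHGDH (-1.09), DDIT4 (-0.80) and PSAT1 (-0.45) fell, so that 5 members fell in place of 2. NUPR1, TRIB3, GDF15 and ATF4 passed with and without that library. Of the further ATF4-linked genes 8 of 20 rose and 3 fell, and SLC7A1, a cationic amino acid transporter, was the one with the smallest adjusted p (-1.22). The other cytosolic tRNA synthetases rose for 5 of 8 and fell for 1, and the mitochondrial ones rose for 9 of 17 and fell for 3.

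**Figure D4:**
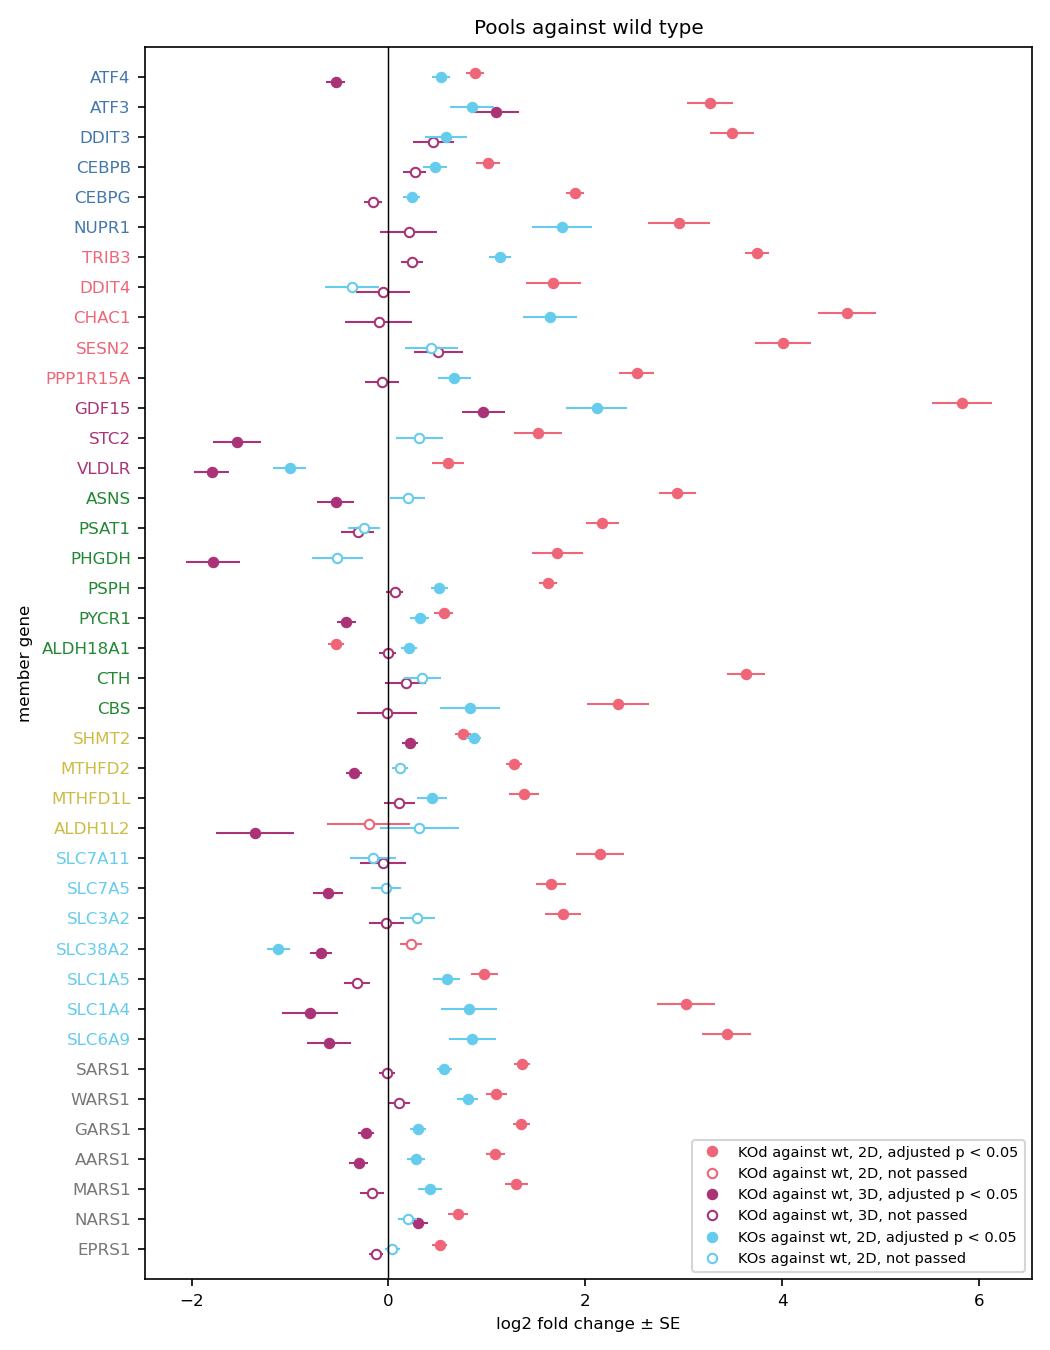
Log2 fold change against wt (horizontal axis, bars SE) of each member (vertical axis, coloured by role) for KOd 2D, KOd 3D and labelled KOs 2D; filled points passed an adjusted p of 0.05. KOd 2D lies to the right for nearly all members (37 of 40 rose), KOd 3D lies around 0, and labelled KOs 2D between them for many.

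The next comparison asked how the module changed from adherent culture to tumorspheres. In wild-type cells it split by role. Of 40 members 13 rose and 18 fell, beside 33.3% of all genes that rose and 30.4% that fell, so the share that rose was that of the background. None of the 8 synthesis enzymes rose and 6 fell, 5 of 7 tRNA synthetases fell and none rose. Of the 4 one-carbon enzymes 3 fell and 1 rose. In contrast 6 of 7 transporters rose and 1 fell.

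ASNS fell from the adherent level given above to 14.8, 17.8 and 13.3 CPM in wt tumorspheres, with no overlap (-1.85 ± 0.19, adjusted p = 1.9e-07). PSAT1 fell by 1.77 and CTH by 1.12 on the log2 scale. The fall of PHGDH, 0.61, was at the threshold (adjusted p = 0.049) and was lost in most fits that left out 1 library, down to 0.35 without wt 2D replicate C. Of the transporters, SLC7A11 rose from 115, 108 and 130.3 CPM to 714, 787 and 418 CPM, so that replicate C was below the others of its group but far above every 2D library (2.44 ± 0.25, adjusted p = 1.6e-07). SLC6A9 reached 30.9, 28.4 and 33.7 CPM, without overlap (2.49 ± 0.24, adjusted p = 1e-07). SLC1A4, SLC3A2 and SLC7A5 rose by 1.09, 0.91 and 0.73, and SLC38A2 fell by 0.32, a call lost without wt 2D replicate C or wt 3D replicate A.

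The stress effectors and secreted members moved upwards in part. GDF15 reached 73.3, 64.5 and 54.4 CPM in wt tumorspheres, the largest rise of any member in wt (5.61 ± 0.30, adjusted p = 5.8e-11), to a range that overlaps that of adherent KOd cells. SESN2 rose by 1.78 and NUPR1 by 1.74, while CHAC1 fell by 0.92 (not called without wt 2D replicate C or wt 3D replicate A). ATF4 at 279.7, 267 and 312 CPM and TRIB3 at 77.8, 74.3 and 61.3 CPM both rose a little, each above all wt 2D libraries (0.35 ± 0.09 and 0.43 ± 0.11, adjusted p = 0.0036 and 0.0033). DDIT3 at 20.6, 19.1 and 12.0 CPM overlapped 2D and did not pass (0.35, adjusted p = 0.16), though it did without wt 3D replicate C (0.56, adjusted p = 0.029). Falls were common in other lists too. Of the further ATF4-linked genes 11 of 20 fell and 3 rose, and of the other folate enzymes 8 of 14 fell and 4 rose. Of the other cytosolic tRNA synthetases 7 of 8 fell, and of the mitochondrial ones 11 of 17 fell and 1 rose. Of the proliferation genes 8 of 8 fell (median -1.72). Rises prevailed in others: 8 of 9 p53 targets (median 1.35), 6 of 8 NRF2 targets (1.17, 1 fell) and 4 of 6 interferon genes (1.22). The part of these lists in the members' changes was not tested.

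In tumorspheres labelled KOs, 6 of 8 synthesis enzymes and 6 of 7 tRNA synthetases fell, and most transporters fell as well. Here 8 members rose (32.9% of all genes did) and 25 fell (32.1% of all genes). PSAT1 fell most among the well-expressed members, from 99.2, 68.1 and 70.5 CPM to 13.0, 12.7 and 11.7 CPM (-2.67 ± 0.17, adjusted p = 1.1e-09). ASNS ended at 14.8, 14.6 and 15.2 CPM, close together and clear of 2D (-2.09 ± 0.19). STC2 dropped from 175, 208 and 291 CPM to 55.4, 57.9 and 58.3 CPM (-1.98 ± 0.25), and GDF15 rose to 129, 109 and 127 CPM (4.42 ± 0.26, adjusted p = 2.5e-10). Of the transporters 2 rose, SLC7A11 (1.61) and SLC6A9 (0.72, lost without replicate B or C of labelled KOs 2D), and 4 fell. ATF4 at 259, 270.2 and 272 CPM was lower in all 3D than in all 2D libraries (-0.29, adjusted p = 0.011), and DDIT3 at 38.0, 38.0 and 39.7 CPM was higher in all of them (0.93 ± 0.21, adjusted p = 0.00085). TRIB3 at 94.2, 91.8 and 93.9 CPM fell by 0.32, but did not pass without labelled KOs 2D replicate A (-0.24, adjusted p = 0.07) or 3D replicate B (-0.31, adjusted p = 0.055). Without labelled KOs 2D replicate A, NUPR1 and CBS, reported at -0.11 and -0.17 with no call, were at 0.66 and 0.57 and passed, and the falls of PHGDH (-0.25) and SLC1A4 (-0.35) were lost. The number that rose was 5 without labelled KOs 2D replicate B.

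In KOd cells almost the whole module fell on the way to tumorspheres: 36 of 40 members fell and 2 rose, where 31.2% of all genes fell and 35.2% rose, with a median of -1.74 (0.07 over all genes). ASNS dropped to 10.3, 11.8 and 9.56 CPM, with every 3D library more than 30 times below every 2D library (-5.32 ± 0.21, adjusted p = 1.4e-12). CTH went to 3.91, 4.25 and 2.66 CPM (-4.58 ± 0.21), PSAT1 from 385, 422 and 472 to 20.4, 23.6 and 22.9 CPM (-4.26 ± 0.18), and PHGDH from 183, 199 and 213 to 10.9, 11.8 and 11.8 CPM (-4.11 ± 0.29). None of these overlapped. Among the regulators and effectors, TRIB3 ended at 81.3, 84.6 and 86.8 CPM (-3.08 ± 0.12, adjusted p = 1.1e-12), DDIT3 at 25.1, 29.1 and 16.8 CPM (-2.68 ± 0.22) and CHAC1 between 1.07 and 1.37 CPM (-5.68 ± 0.31). ATF4 fell from the 2D level given above to 178, 178 and 236 CPM (-1.07 ± 0.09, adjusted p = 2.3e-08). All 7 tRNA synthetases fell, by 0.96 to 2.29 on the log2 scale. GDF15 rose to 137, 132 and 106 CPM (0.74 ± 0.22, adjusted p = 0.0061), and ALDH18A1 rose by 0.23, a call lost without KOd 2D replicate B or C or KOd 3D replicate C and so leaving 1 that rose. The further ATF4-linked genes fell for 17 of 20 and rose for 2 (median -1.76), and the reticulum chaperones fell for 16 of 17. Other lists went up: NRF2 targets rose for 7 of 8 (median 1.68), p53 targets for 7 of 9 (1.31, 1 fell) and interferon genes for 5 of 6 (0.90, 1 fell).

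Whether these changes differed from the wild-type change was tested by the interaction of pool and culture. For KOd the change from 2D to 3D was more negative than in wt for 38 of 40 members and more positive for 1, where the test passed for 14.7% and 14.4% of all genes. The median difference was -1.93 on the log2 scale (0.008 over all genes). This contrast contains the same KOd 2D and wt 2D libraries as the comparison of adherent cells and is no separate evidence of the high adherent level. By role, all 6 regulators (median -2.11), all 5 effectors (-3.50), all 3 secreted and surface proteins (-3.06), all 7 transporters (-2.21) and all 7 tRNA synthetases (-1.37) were more negative, as were 7 of 8 synthesis enzymes (-2.42) and 3 of 4 one-carbon enzymes (-1.21).

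GDF15 had the largest difference, -4.87 ± 0.37 (adjusted p = 7.6e-08), and was already high in adherent KOd cells. For SLC6A9 the difference was -4.04 ± 0.33, with 20.6, 19.9 and 20.7 CPM in KOd 3D, below KOd 2D where wt had risen. SLC1A4, at 7.21, 6.93 and 6.02 CPM in KOd 3D, showed -3.82 ± 0.41, and SESN2, at 32.2, 29.3 and 47.8 CPM, -3.50. TRIB3 (-3.50 ± 0.16) had rank 1 of all genes by adjusted p (7.4e-10). ASNS showed -3.47 ± 0.27, DDIT3 -3.04 ± 0.30 and ATF4 -1.42 ± 0.13 (adjusted p = 7.9e-07). ALDH18A1 was the exception with 0.53, and ALDH1L2 did not pass (-1.16, adjusted p = 0.15). The weakest call, NARS1 at -0.40, was lost in 12 of the fits that left out 1 library. Of the further ATF4-linked genes 16 of 20 were more negative and 1 more positive, and of the other cytosolic tRNA synthetases 0 of 8 were more negative and 1 more positive.

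For the pool labelled KOs the difference was smaller: 16 members were more negative than in wt and 2 more positive, where the test passed for 19.0% and 17.9% of all genes (median -0.31). STC2 (-2.17 ± 0.34, adjusted p = 0.00012), SLC1A4 (-2.05 ± 0.41), NUPR1 (-1.84 ± 0.42) and SLC6A9 (-1.77 ± 0.33) were furthest from wt. Without labelled KOs 2D replicate A all 4 were still called, but in another order: STC2 (-2.33) was followed by SLC7A5 (-1.48), SLC1A4 (-1.44), SLC1A5 (-1.29) and SLC6A9 (-1.23), and NUPR1 was at -1.08. In these 3D libraries SLC1A4 lay at 4.90, 5.03 and 4.98 CPM and SLC6A9 at 16.8, 15.4 and 17.0 CPM, both below every wt tumorsphere library, and NUPR1 at 56.6, 52.8 and 55.1 CPM overlapped them. TRIB3 (-0.74) and ATF4 (-0.64) were more negative as well. CEBPB (0.48) and CTH (0.89) were more positive, though CTH was not called without wt 3D replicate C (0.71), nor CEBPB without any 1 of 8 libraries, which left between 0 and 3 members that were more positive.

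**Figure D5:**
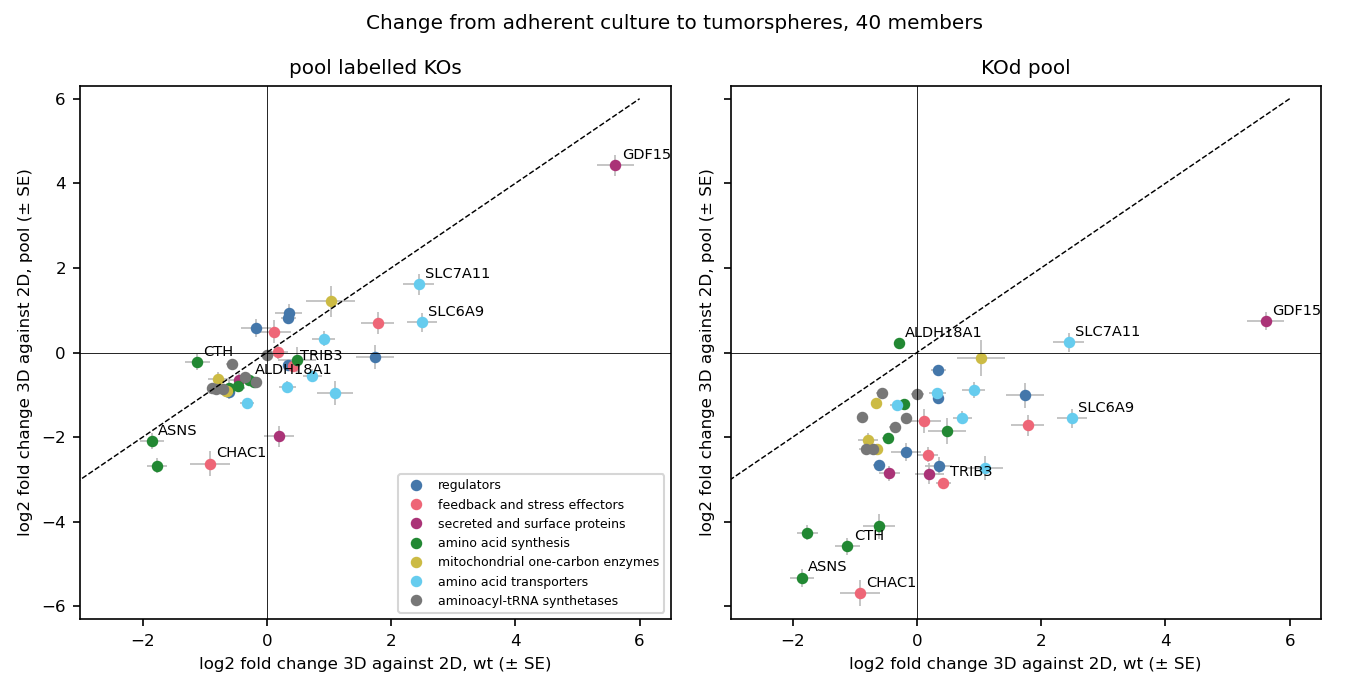
Log2 fold change of 3D against 2D in wt (horizontal axis) and in each pool (vertical axis), 1 point per member with SE bars, a dashed line where both are equal. Most members of the KOd pool lie below the line (38 of 40 more negative), with GDF15 and CHAC1 furthest from it (differences of -4.87 and -4.76).

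By these calls, 16 of the 40 members fell in tumorspheres of all 3 genotypes, as did 15.9% of all genes, and GDF15 was the 1 member that rose in all 3, as did 16.2% of all genes. For 11 of the 16 the calls held in every fit that left out 1 library. For the other 5 a call was lost in at least 1 such fit: those of CHAC1, SLC38A2 and VLDLR in wt, that of NARS1 in labelled KOs, and those of PHGDH in both. ATF4, TRIB3, SLC1A4, SLC1A5 and SLC7A5 were called higher in wt and lower in both pools, though the falls of SLC1A4 (-0.35, adjusted p = 0.099) and TRIB3 (-0.24, adjusted p = 0.07) in labelled KOs were not called without labelled KOs 2D replicate A, nor that of TRIB3 without 3D replicate B. CEBPB, SESN2 and SLC6A9 rose in wt and labelled KOs and fell in KOd. Of these rises, that of CEBPB in wt was lost without wt 2D replicate A or C (0.28 and 0.29). In labelled KOs that of SESN2 was lost without replicate B or C of 2D or replicate C of 3D (0.45 to 0.66). That of SLC6A9 was lost there without replicate B or C of 2D. ALDH18A1 fell in wt and labelled KOs and rose in KOd, a rise lost without KOd 2D replicate B or C or KOd 3D replicate C. For these calls in opposite directions the share of all genes was not counted. The rise of SLC1A5 in wt (0.33) was near the threshold and was lost in 12 of the fits that left out 1 library.

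Once in tumorspheres, KOd cells no longer stood above wild type. In KOd 3D 4 members were higher and 14 lower than in wt 3D, where 16.5% of all genes were higher and 17.5% lower, and the median was -0.08 (0.003 over all genes; 0.07 for the members when library totals alone were used, with 8 higher and 8 lower). VLDLR fell from 7.72, 8.40 and 8.96 CPM to 2.32, 2.40 and 2.49 CPM (-1.80 ± 0.18, adjusted p = 4.3e-07). PHGDH, at 37.6, 34.8 and 46.6 CPM in wt 3D, was below 12 CPM in each KOd library (-1.79 ± 0.27), the reverse of its position in 2D. STC2 at 87.7, 82.3 and 43.9 CPM lay below wt 3D at 253, 240.3 and 129.8 CPM, with replicate C the lowest in both groups (-1.54 ± 0.24, adjusted p = 8.7e-05). ATF3 was higher, at 7.70, 8.15 and 7.43 CPM beside 3.88, 4.40 and 2.58 CPM (1.10 ± 0.23, adjusted p = 0.0011), and so was GDF15 (0.96 ± 0.22).

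ATF4 itself was lower in KOd than in wt tumorspheres, without overlap (-0.54 ± 0.09, adjusted p = 0.00022). ASNS was lower too (-0.54 ± 0.19, adjusted p = 0.038), a call that was lost with library totals alone (-0.38), with limma-voom and in 4 of the fits that left out 1 library. TRIB3 (0.24, adjusted p = 0.11) and DDIT3 (0.46, adjusted p = 0.11) did not pass. When the replicate letter was added as a block within wt 3D and KOd 3D, whose same-letter libraries deviated together, 19 members passed in place of 18. DDIT3 (0.46, adjusted p = 0.0296) and SLC1A5 (-0.32, adjusted p = 0.0357) passed in that fit, and SLC6A9 (-0.60, adjusted p = 0.054) did not. The number lower was 9 without wt 3D replicate A, and the calls of SLC1A4 (-0.80) and SLC6A9 were each lost without any 1 of several libraries.

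In tumorspheres labelled KOs, 12 members were higher and 11 lower than in wt 3D, where 27.8% and 28.5% of all genes were, so neither share exceeded the background by much. The members' median was -0.02, and 0.16 with library totals alone, a scaling under which the median of all genes moved to 0.179. SLC38A2 at 267, 279 and 272 CPM was below 1028, 1129.7 and 1108 CPM (adjusted p = 2.4e-10), and STC2 (-1.86 ± 0.25) and SLC7A5, at 252, 243 and 246 CPM beside 691, 614 and 529 CPM (-1.31 ± 0.15, adjusted p = 1.4e-06), were lower as well. None of these overlapped wt. Of the 7 transporters 6 were lower and 0 higher. ATF3 at 11.3, 11.2 and 10.4 CPM was higher than in all wt 3D libraries (1.60 ± 0.23, adjusted p = 1e-05), as were DDIT3 (1.16 ± 0.21, adjusted p = 0.00015), CTH (1.24) and CEBPB (0.95). TRIB3 was slightly higher (0.39 ± 0.11, adjusted p = 0.0068), and ATF4 (-0.10) and ASNS (-0.04) did not pass.

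The wild-type cells kept attached in tumorsphere medium separate the medium from the suspension culture in part, with n = 2. Relative to wt 2D in standard medium, 18 members rose and 4 fell, beside 15.6% and 16.4% of all genes, with a median of 0.29 (0.0 over all genes). GDF15 reached 21.6 and 27.4 CPM (4.22 ± 0.31, adjusted p = 3e-08), CEBPB rose from 42.9, 54.5 and 43.1 CPM to 110.4 and 110.3 CPM (1.24 ± 0.13, adjusted p = 2.1e-06), and ASNS to 102 and 124 CPM (1.03 ± 0.20, adjusted p = 0.00064). ATF4 at 384 CPM in both libraries (0.77 ± 0.10, adjusted p = 2.2e-05) and TRIB3 at 99.2 and 107 CPM (0.96 ± 0.12, adjusted p = 1.7e-05) were above all wt 2D libraries. DDIT3 at 10.3 and 12.8 CPM overlapped wt 2D (-0.23, adjusted p = 0.53). VLDLR fell from 11.8, 11.3 and 11.0 CPM to 3.56 and 3.34 CPM (-1.72 ± 0.20, adjusted p = 5.7e-06), and SLC1A4 to 2.09 and 2.63 CPM (-1.22 ± 0.36, adjusted p = 0.016, not called without wt 2D replicate C or either library in tumorsphere medium). Leaving out 1 of the libraries in tumorsphere medium lowered the number called from 22 to 13 (without replicate A) or 11 (without replicate B), with 11 and 9 that rose and 2 that fell each time. Without labelled KOs 2D replicate A, 7 fell.

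From that state to wt tumorspheres, which share the medium, 13 members rose and 22 fell, beside 32.8% and 30.0% of all genes. ASNS fell most among the well-expressed members (-2.88 ± 0.20, adjusted p = 2.6e-09), with no overlap. SLC7A11, at 73.4 and 80.4 CPM in the adherent cells, rose by 3.06 ± 0.30 (adjusted p = 1.2e-07), and SLC1A4 by 2.31 ± 0.36 to 12.0, 10.7 and 12.3 CPM. NUPR1 rose from 11.7 and 15.8 CPM to 60.0, 53.2 and 61.3 CPM (2.08 ± 0.36). ATF4 (-0.42, adjusted p = 0.0017) and TRIB3 (-0.54, adjusted p = 0.0012) fell, so that their small net rise from 2D to 3D in wt had a rise in the tumorsphere medium and a fall from there to spheres. All 6 transporters that passed rose, and 7 of 8 synthesis enzymes and 6 of 7 tRNA synthetases fell. DDIT3 (0.58, adjusted p = 0.05) was at the threshold and did not pass, but did in 5 of the fits that left out 1 library, up to 0.79 without wt 3D replicate C.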

How the data were processed

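The authors deposited 1 table of read counts per Entrez gene for all 20 libraries, whole numbers with no normalization, beside a gene length column of another unit (bases), per the file headers. Reads were mapped with STAR to hg38, per the submitters' processing notes. The counting tool, its strand setting and its annotation are not given in the sources used here. Of 27864 IDs, 27740 were matched to symbols and GRCh38.p14 positions through RefSeq. No 2 libraries shared more than 1.42% of equal counts.

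In R 4.3.3, filterByExpr of edgeR 4.0.16 kept 16323 genes for testing, and TMM scaled the libraries. One quasi-likelihood fit of all 20 libraries gave each group its own coefficient (13 residual degrees of freedom, biological coefficient of variation 0.143), and p-values were adjusted by Benjamini-Hochberg over all genes, with 0.05 as the threshold. CPM use TMM-scaled totals, and RPKM divide these by the length column. The bulk libraries cannot tell fewer cells of a type from less RNA per cell. Depth of at least 26396964 reads makes 3 reads worth at most 0.114 CPM.

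The members, lists, roles and tests were chosen with earlier results of these data known. Values of every library are given for ATF4, ASNS, DDIT3 and TRIB3. Per contrast, so are those of up to 4 members past the threshold with the largest change. These needed a mean log2 CPM (prior count 2) of at least 2. Those of ATF3, NUPR1 and ALDH18A1 in adherent KOd cells are given outside this rule, ALDH18A1 as the only member that fell there. From each other list up to 3 genes with the smallest adjusted p could be named; GOT1 and ATF5 were named after their values were seen.

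Tried as alternatives were DESeq2 1.42.0, limma-voom (limma 3.58.1), scaling by RLE or by library totals alone, dropping the filter or asking for 1 CPM in 3 libraries, a block for the replicate letter, leaving out 1 library at a time and leaving out 3 libraries that stand apart (labelled KOs 2D A, wt 3D C and KOd 3D C). Added after seeing the data were the contrast of the pools in 2D, a block within wt 3D and KOd 3D, and TMM without the ATF4-linked genes. Replicate letters do not pair libraries in the labels. Same-letter libraries deviated together (r over 0.1 for each letter) in wt 3D and KOd 3D alone (0.210, 0.218 and 0.342), where the unlike letters A and B gave 0.125 and 0.208. The steps were also run on simulated data with few changed genes and an even spread between libraries. These data differ in both, so that run checks the code alone. Protein, eIF2 phosphorylation and ATF4 binding were not analysed here.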

Additional observations from a re-analysis of the deposited data

Results flagged for a closer look

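The change from 2D to 3D differed between a pool and wild type, by the interaction test of the whole-table fit, for 39 of the 40 members in KOd, where 14.7% of all genes were more negative and 14.4% more positive. In the pool labelled KOs it differed for 18 members, 16 more negative and 2 more positive, where 19.0% and 17.9% of all genes were. Some of these members were called in opposite directions in wt and in a pool. How many of all genes were called so was not counted, so what follows only describes the members. In KOd these were SLC6A9 (difference of the changes -4.04 on the log2 scale), SLC1A4 (-3.82), SESN2 (-3.50), TRIB3 (-3.50), NUPR1 (-2.75), SLC7A5 (-2.27), SLC3A2 (-1.80), ATF4 (-1.42), SLC1A5 (-1.29) and CEBPB (-0.75), which rose in wt and fell in KOd. ALDH18A1 (0.53) fell in wt and rose in KOd. The rises of CEBPB and SLC1A5 in wt and of ALDH18A1 in KOd were each lost in some fits that left out 1 library. In the pool labelled KOs they were SLC1A4 (-2.05), SLC7A5 (-1.28), SLC1A5 (-1.13), TRIB3 (-0.74) and ATF4 (-0.64), which were called higher in wt and lower in the pool. Without labelled KOs 2D replicate A the falls of SLC1A4 (-0.35, adjusted p = 0.099) and TRIB3 (-0.24, adjusted p = 0.07) in the pool were not called, and the wt rise of SLC1A5 (0.33) was lost in 12 of the fits that left out 1 library. Both pools share the wt libraries. The read depth and ribosomal RNA share of the libraries labelled KOs differ from those of wt in both cultures, and their part in these differences was not tested.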

How the results depend on the processing

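The rise of the module in adherent KOd cells held in each alternative run: leaving out 1 library gave 38 to 39 members called and 37 to 38 that rose, and TMM without the ATF4-linked genes gave 37 that rose. The interaction for KOd gave 38 to 40 called. Library totals alone gave 8 members higher and 8 lower in KOd 3D against wt 3D (4 and 14 as reported) and 4 more positive in the interaction for labelled KOs (2). That scaling moved the median of all genes, in labelled KOs 3D against 2D from 0.022 to 0.24, where the members' median became -0.38. Without the 3 libraries that stand apart, 5 members fell in labelled KOs 2D against wt 2D (2 as reported), 7 were higher in KOd 3D against wt 3D (4), 5 were more positive in the interaction for labelled KOs (2), 8 fell in tumorsphere medium (4) and 2 were lower in KOd 2D than in labelled KOs 2D (1). Without a filter, 1 rose in KOd 3D against 2D (2). Leaving out 1 library gave 5 to 11 that rose in labelled KOs 3D against 2D, 1 to 2 that rose in KOd 3D against 2D, 2 to 5 that fell in labelled KOs 2D against wt 2D, 9 to 15 lower in KOd 3D against wt 3D, 0 to 3 more positive in the interaction for labelled KOs, and, in tumorsphere medium, 11 to 28 called, 9 to 21 that rose and 2 to 7 that fell. In labelled KOs 3D against 2D, leaving out 1 library moved CBS between -0.46 and 0.57 and NUPR1 between -0.40 and 0.66, with the positive values without labelled KOs 2D replicate A, and they were 0.58 and 0.67 without the 3 libraries. The causes were not tested. With a block for the replicate letter in every group, 472 of 480 values kept their side of the threshold, 4 passed anew and 4 were lost: PHGDH in wt 3D against 2D (-0.60, adjusted p = 0.0563), ALDH18A1 in labelled KOs 2D against wt 2D (0.21, adjusted p = 0.0542), and SLC6A9 and EPRS1 in tumorsphere medium. Kept were 438 with library totals alone (25 lost, 17 passed anew) and 427 without the 3 libraries (5 lost, 46 passed anew, 2 reversed). The label reversed also covers values with no call as reported that then passed with the opposite sign. CBS and NUPR1 did so without labelled KOs 2D replicate A. The number kept was 474 with RLE factors, 473 with DESeq2, 470 with limma-voom, 475 with no filter and 477 with the strict filter. Changes of low members such as ALDH1L2 (6 to 100 reads per library) are limited by depth.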
